A study of Anas platyrhynchos with 5 samples.

Results

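Black feather bulbs of an F2 cross were compared with white bulbs of the breeds that founded it. The comparison uses 3 of the 5 small RNA libraries of a study of duck (Anas platyrhynchos) plumage. The black library comes from Kaiya-Liancheng F2 ducks and the white ones from pure Kaiya and pure Liancheng ducks, all aged 12 months. The labels call the bulbs of the F2 library black and the plumage of its ducks white-black, a plumage label that the white F2 library shares. They do not say whether the bulbs came from wholly black birds or from black feathers of birds with both colours. Within each duck 3 bulbs were pooled, and ducks of a breed were then combined into 1 library, so each group is 1 library and the number of birds behind it is not stated. Depth was 1988317 mature miRNA reads in the black F2 library, 4269854 in Kaiya and 1601329 in Liancheng.

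The feather bulb is the growing base of the feather follicle, in which epithelial cells form the barbs around a dermal pulp with blood vessels. Melanocytes in the bulb make melanin and hand it to the keratinocytes, and bulbs without working melanocytes form white feathers. MicroRNAs (miRNAs) are short RNAs cut from a hairpin. Each hairpin can give a 5p and a 3p arm, and bases 2 to 8 of an arm, its seed, choose the messenger RNAs that it represses.

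The comparison turned on a few mature miRNAs, whose sequences are shown as the deposited tables list them, 5′ to 3′, with the seed in capitals. The first pair are the arms of mir-204, which were far above both breeds. The next 4 are arms of the blood-linked mir-144 and of mir-2188, which differed between the breeds. The last 4 are the HOX-encoded miRNAs, of which miR-10b-1-5p and miR-10b-2-5p share their seed and differ by 1 base (A12U, counted from the 5′ end), and the 5p arm of a hairpin without a family number, the lowest of all against the breeds.
miR-204-5p: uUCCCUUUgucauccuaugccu
miR-204-3p: gCAGGGACagcaaagggaugcuc
miR-144-3p: uACAGUAUagaugauguacucc
miR-144-5p: cGAUAUCAucguauacuguaagu
miR-2188-3p: aUAUAUGUggucagaccuaucc
miR-2188-5p: aAGGUCCAaccucacauguccu
miR-10b-1-5p: uACCCUGUagaaccgaauuugu
miR-10b-2-5p: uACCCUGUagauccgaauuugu
miR-196-1,2,3-5p: uAGGUAGUuucauguuguuggga
5p arm without a family number: uUCCAGUCcauguaccaucagu

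Black F2 bulbs lay far outside the range of their white founder breeds in the arms of mir-204, and within 2-fold of at least 1 breed in every other miRNA compared. Of 132 mature names listed in all 3 tables, the 108 compared had 50 or more reads when the libraries were added up. Levels are reads scaled by TMM, a method that evens out differences in library composition, in CPM (reads scaled to a library total of 1e6). The distance beyond the breeds is the log2 ratio of the black F2 level to the nearer breed, and is 0 where the level falls between them. Of the 108 miRNAs, 2 (1.85%) were at least 2-fold above both breeds, which is a log2 distance of 1, and 0 (0%) were at least 2-fold below both. Of the 2, miR-204-3p passed the minimum of 50 reads only through the black F2 library. There is 1 black F2 library, so no test was made. Intervals are exact 95% counting intervals and do not cover the spread between birds or pools.

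The level of miR-204-5p was 8786 CPM in the black F2 library, 105 CPM in Kaiya and 120 CPM in Liancheng. The breeds lay close together, and the black F2 level was 83.6-fold that of Kaiya and 73.1-fold that of Liancheng. The log2 ratios were 6.39 (6.25 to 6.53) and 6.19 (5.99 to 6.40), from 18237 reads in the F2 library, 426 in Kaiya and 194 in Liancheng. This miRNA shares its seed with miR-211, which in human lies within a gene of melanocytes, and is expressed in the pigmented epithelium of the vertebrate eye. The name miR-204 is the deposited one, and neither arm was checked by sequence against miR-211. miR-204-5p made up 0.917% of the reads of black F2 bulbs. In a whole bulb, more cells of a type and more of an RNA in each cell cannot be told apart.

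The other arm of the hairpin was also higher in black F2. The level of miR-204-3p was 27.9 CPM in the black F2 library, 0.740 CPM in Kaiya and 0.619 CPM in Liancheng. Behind these levels are 58, 3 and 1 reads, so that both breeds lie at or under a floor of 3 reads. The ratio to Kaiya was 37.8-fold, with a log2 value of 5.24 and an interval of 3.62 to 7.56. That to Liancheng had a log2 value of 5.50 (2.96 to 10.8).

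**Figure D1:**
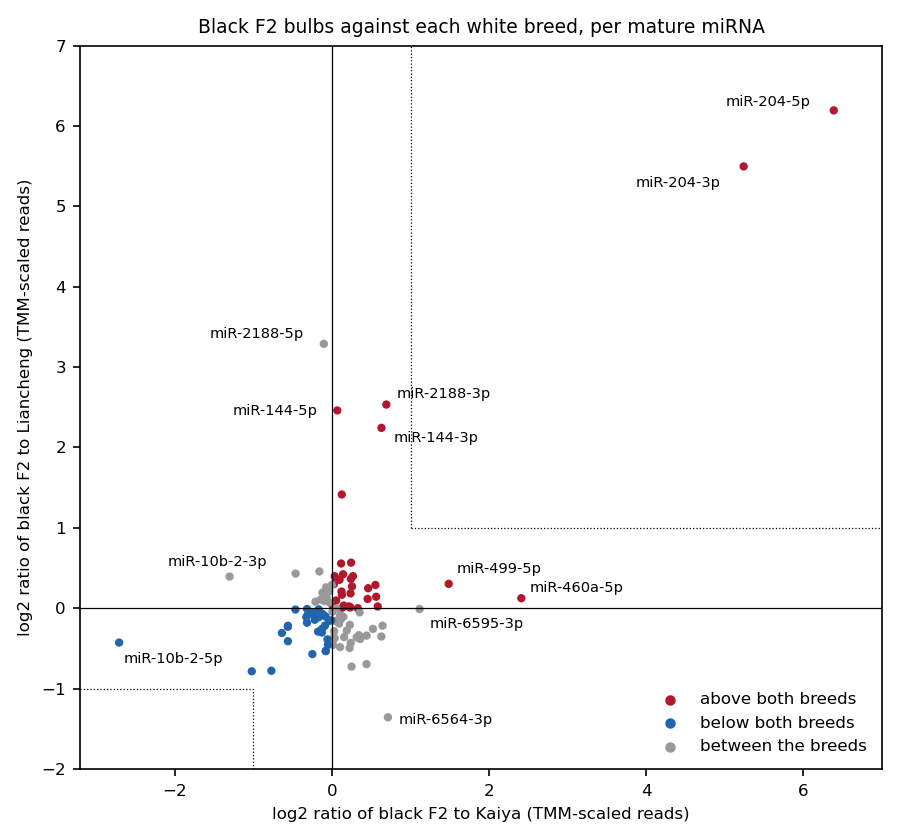
Each point is 1 of 108 mature miRNAs, with the log2 ratio of black F2 to Kaiya on the x axis and to Liancheng on the y axis. Red points lie above both breeds, blue ones below both and grey ones between them, and dotted lines mark 2-fold from both. The arms of mir-204 are the only points past the upper lines, at 6.39 and 6.19 for miR-204-5p, and no point lies past the lower ones.

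Smaller distances were common and fell to either side. The black F2 library was above both breeds in 33 miRNAs (30.6%) and below both in 31 (28.7%), so that 64 of 108 (59.3%) lay outside the range of the breeds. Names are counted separately even where they share reads, as miR-455-1,2-3p and miR-455-2-3p do among the 31, with 32 reads each in black F2. With library size alone as the scaling, the split was 45 above and 17 below. Kaiya was the highest of the 3 libraries in 32 miRNAs and the lowest in 45, and Liancheng was the highest in 43 and the lowest in 32. The black F2 library therefore took an outer place no more often than either breed did. The median distance of the 64 was 0.117 on the log2 scale, and 45 of them were under 0.2. For 12 miRNAs above and 13 below, the counting intervals against both breeds excluded a ratio of 1.

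On the upper side miR-144-3p and miR-2188-3p followed the arms of mir-204. miR-144, an erythroid miRNA in vertebrates, had a 3p level of 299 CPM in the black F2 library, 193 CPM in Kaiya and 63.2 CPM in Liancheng. Its log2 ratios were 0.63 (0.48 to 0.78) to Kaiya and 2.24 (1.94 to 2.56) to Liancheng. miR-2188-3p had 32.3, 20.0 and 5.57 CPM in the same order, with log2 ratios of 0.69 (0.20 to 1.18) and 2.53 (1.52 to 3.72). Both were thus above Kaiya by 1.55-fold and 1.62-fold and far above Liancheng. The partner arms lay close to Kaiya. miR-144-5p stood at 92.0 CPM in the black F2 library, 87.8 CPM in Kaiya and 16.7 CPM in Liancheng. miR-2188-5p stood at 508 CPM in the black F2 library, 546 CPM in Kaiya and 52.0 CPM in Liancheng.

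The erythroid list of miR-144 and miR-2188 arms summed to 932 CPM in black F2, 847 CPM in Kaiya and 137 CPM in Liancheng. Over the scalings tried, 2 to 4 of its 4 members were above both breeds. The count over all miRNAs compared ran from 25 of 108 under upper-quartile scaling to 45 of 108 with library size alone. Under TMM the sum was highest in black F2 but close to that of Kaiya. The part of blood in the miR-204 step was not tested. The third family of this list, miR-451, was not analysed here.

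The remaining high miRNAs passed the nearer breed by less than 1.5-fold. miR-499-5p, which in mammals lies within a myosin gene of muscle, stood at 57.3 CPM in black F2, 20.5 CPM in Kaiya and 46.4 CPM in Liancheng. Its log2 ratio to Liancheng was 0.30 (-0.12 to 0.74). miR-187-3p had 74.2 CPM in black F2, 50.6 CPM in Kaiya and 60.7 CPM in Liancheng, at 0.29 (-0.08 to 0.67) beyond Liancheng. For both, the interval against Liancheng includes a ratio of 1, so they were not separated from that breed at this depth.

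The abundant miR-27b-3p rests on far more reads. It stood at 53475 CPM in black F2, 44796 CPM in Kaiya and 44291 CPM in Liancheng, a log2 distance of 0.26 (0.24 to 0.27) from Kaiya. The choice of scaling mattered more than counting here, with distances from 0.11 under upper-quartile scaling to 0.32 with library size alone. The breeds differed by 0.02. miR-99a-3p lay 0.27 (0.03 to 0.50) above Kaiya, and an unnumbered hairpin's 3p arm of sequence uCCUGGAUucgcugcugcuguuu 0.24 (0.03 to 0.45) above it. Under upper-quartile scaling the distances of miR-99a-3p and this arm fell to 0.13 and 0.10, each smaller than its counting error. miR-30e-1-3p was 0.14 (0.00 to 0.28) above Liancheng. miR-1552-3p at 0.25 (-0.11 to 0.62) above Liancheng and miR-2131-3p at 0.24 (-0.18 to 0.66) above Kaiya were within counting error of that breed.

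The lowest miRNA against both breeds was the 5p arm without a family number shown with the sequences. It stood at 25.5 CPM in the black F2 library, 51.8 CPM in Kaiya and 44.0 CPM in Liancheng. The black F2 level was 1.72-fold below Liancheng, the nearer breed, with a log2 ratio of -0.78 (-1.33 to -0.25). The reads were 53, 210 and 71. miR-429-5p, the minor arm of an epithelial hairpin of the miR-200 family, had the next distance, -0.77, but rests on 9 reads in black F2, 30 in Kaiya and 12 in Liancheng.

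HOX-encoded miRNAs came next on the lower side. The genes of miR-10 and miR-196 lie within the HOX clusters, which set the identity of body regions. miR-10b-2-5p stood at 15137 CPM in the black F2 library, 98923 CPM in Kaiya and 20339 CPM in Liancheng. Black F2 was thus near Liancheng, with a log2 ratio of -0.43 (-0.45 to -0.40) to it, and had a log2 ratio of -2.71 (-2.72 to -2.69) to Kaiya. miR-196-1,2,3-5p stood at 3547 CPM in black F2, 5229 CPM in Kaiya and 4711 CPM in Liancheng, a distance of -0.41 (-0.46 to -0.36) from Liancheng.

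The near-identical miR-10b-1-5p did not share this step. It stood at 133752 CPM in black F2, 184520 CPM in Kaiya and 135166 CPM in Liancheng, which places black F2 within 0.02 of Liancheng. Since it differs from miR-10b-2-5p by 1 base, reads could be counted to the other where mismatches were allowed, and the sources used here do not give the mismatch setting. The mir-10b names are the deposited ones, and whether the pair are copies of the same member of the miR-10 family was not checked. Of the 5 HOX-encoded members with 50 reads, 0 were above both breeds (30.6% of all 108 were), 3 below (28.7% of all) and 2 between. Over the scalings 2 to 3 were below and 0 to 1 above, and miR-10b-1-5p lay between the breeds under the 4 other scalings that include it. The median log2 ratio of the 5 was -0.56 to Kaiya and -0.11 to Liancheng, against 0.05 and -0.06 over all 108.

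Other low miRNAs lay a small distance below the nearer breed. miR-31-3p, an arm of a keratinocyte hairpin, stood at 187 CPM in black F2, 276 CPM in Kaiya and 220 CPM in Liancheng, or -0.23 (-0.44 to -0.02). miR-106-2,3-5p, of the miR-17 family that is tied to cell division, was -0.18 (-0.32 to -0.04) from Liancheng, and miR-30e-2-3p -0.14 (-0.24 to -0.05). Under upper-quartile scaling these 3 distances shrank to -0.09, -0.04 and -0.002, each smaller than its counting error. miR-449c-1-5p, whose seed is that of the miR-34 family, was -0.31 (-0.67 to 0.05). The distances of miR-190-5p (-0.25), miR-215-5p (-0.22) and miR-214-5p (-0.18) were likewise within counting error of the nearer breed.

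**Figure D2:**
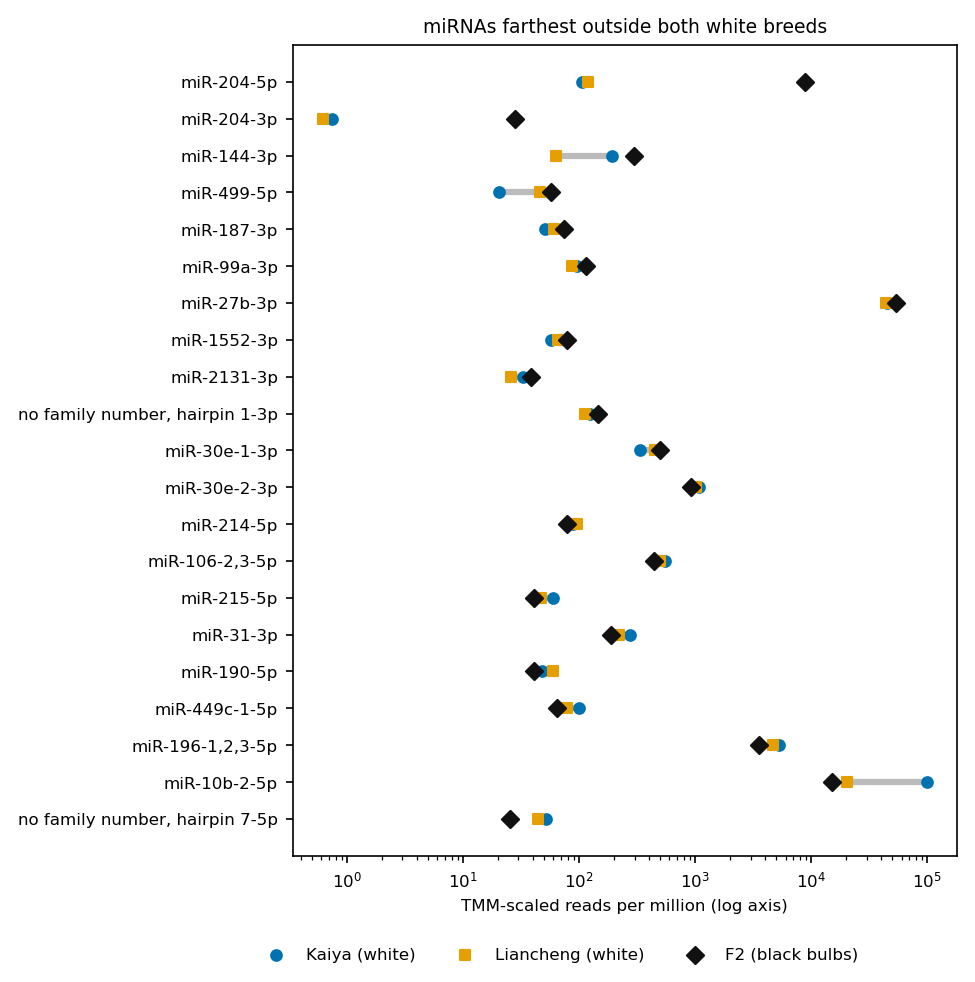
TMM-scaled levels in CPM (log axis) of 21 miRNAs, those 2-fold outside both breeds and the 10 highest and 10 lowest by distance with at least 200 reads. A grey bar spans Kaiya (circle) and Liancheng (square), and the diamond is black F2. The diamond of miR-204-5p lies at 8786 CPM against 105 and 120 CPM in the breeds, while every diamond outside the mir-204 arms lies within 2-fold of an end of its bar.

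The size of the step in miR-204 can be read against the differences between the white breeds themselves. Kaiya and Liancheng differed at least 2-fold in 12 of 108 miRNAs (11.1%), 7 higher in Kaiya and 5 higher in Liancheng. Black F2 differed at least 2-fold from Kaiya in 8 (7.41%) and from Liancheng in 8 (7.41%), counting the arms of mir-204 in each. Without these arms the number was 6 against either breed. The median size of the log2 ratio over the other 106 miRNAs was 0.199 between black F2 and Kaiya, 0.240 between black F2 and Liancheng and 0.292 between Kaiya and Liancheng. By this measure the black F2 library was nearer to each breed than they were to each other.

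Where the breeds differed 2-fold, the black F2 level followed no single breed. It was nearer to Kaiya for 7 of the 12 and nearer to Liancheng for 5, against 58 and 50 of all 108. In 5 it lay between them, in 6 above both and in 1 below both, against 44, 33 and 31 of all 108. Of those above both, only miR-144-3p and miR-2188-3p were beyond counting error of the nearer breed. Both arms of mir-144, mir-2188 and mir-10b-2 are among the 12, so these are not 12 separate cases. None of the 12 was 2-fold away from both breeds, and 9 were within 0.5 on the log2 scale of one of them.

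Black F2 bulbs resembled Kaiya in the mir-144 and mir-2188 arms. miR-2188-5p, the most divergent between the breeds with a log2 ratio of Kaiya to Liancheng of 3.39 (3.08 to 3.72), was -0.10 (-0.21 to 0.00) from Kaiya and 3.29 from Liancheng. miR-144-5p, at 2.39 (1.83 to 3.01) between the breeds, was 0.07 (-0.19 to 0.33) from Kaiya. The 3p arm of the unnumbered hairpin whose 5p arm was lowest had 11.6 CPM in black F2, 10.6 CPM in Kaiya and 4.33 CPM in Liancheng, again close to Kaiya. These levels rest on 24, 43 and 7 reads. Its log2 ratio was 0.12 (-0.66 to 0.88) to Kaiya and, between the breeds, 1.29 (0.13 to 2.69).

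They resembled Liancheng in another set. miR-460a-5p stood at 131 CPM in black F2, 24.7 CPM in Kaiya and 120 CPM in Liancheng. Its log2 ratio was 2.41 (2.07 to 2.76) to Kaiya but 0.13 (-0.15 to 0.40) to Liancheng. miR-6595-3p stood at 25041 CPM in black F2, 11556 CPM in Kaiya and 25203 CPM in Liancheng, so that black F2 and Liancheng differed by 0.01. miR-499-5p and both arms of mir-10b-2 also lay on the Liancheng side, with miR-10b-2-3p at 23.6 CPM in black F2, 58.2 CPM in Kaiya and 18.0 CPM in Liancheng.

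A pair of miRNAs took a middle place. miR-21-5p, which is raised in many growing and healing tissues, stood at 24211 CPM in black F2, 17844 CPM in Kaiya and 39176 CPM in Liancheng. On the log2 scale it covered 0.61 of the way from Liancheng to Kaiya. miR-6564-3p stood at 821 CPM in black F2, 501 CPM in Kaiya and 2103 CPM in Liancheng, at 0.66 of that way.

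**Figure D3:**
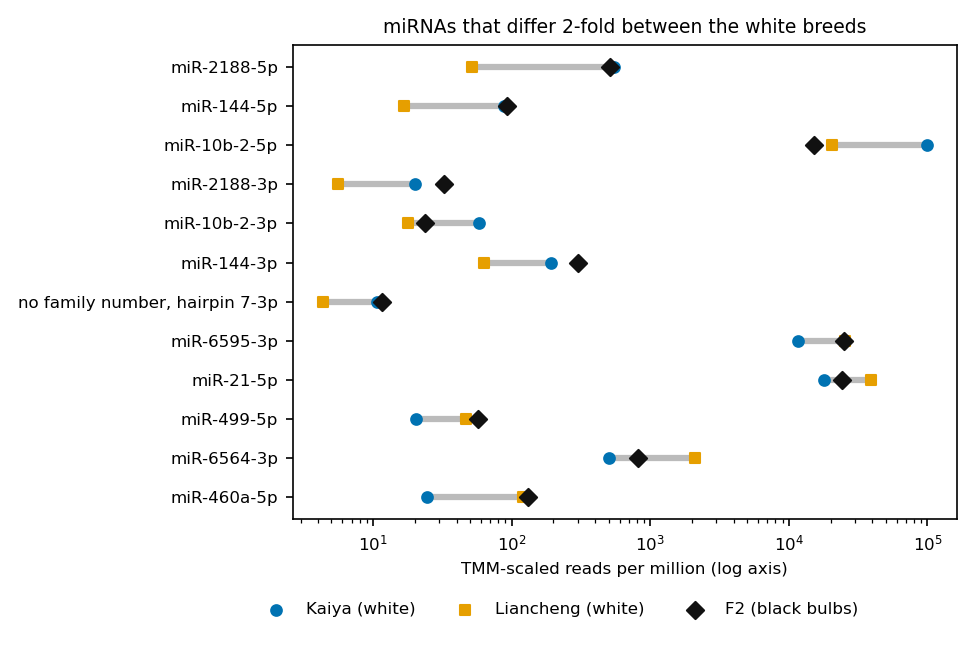
TMM-scaled levels in CPM (log axis) of the 12 miRNAs that differ at least 2-fold between Kaiya (circle) and Liancheng (square), ordered from the highest in Kaiya to the highest in Liancheng, with black F2 as a diamond. The diamond sits at the Kaiya end for miR-2188-5p and miR-144-5p, at the Liancheng end for miR-460a-5p and miR-6595-3p, and inside the bar for miR-21-5p and miR-6564-3p.

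The miRNAs that fill most of each library were close to the breeds, except that miR-10b-2-5p was far below Kaiya. It made up 1.58% of the reads in black F2, 9.40% in Kaiya and 2.05% in Liancheng. The 10 most abundant by their mean level over the 3 libraries made up 68.9% of the reads in black F2, 75.7% in Kaiya and 69.7% in Liancheng. Apart from miR-27b-3p and the pair named mir-10b, the epithelial miR-205b-5p (77301 CPM in black F2, 89350 CPM in Kaiya and 72986 CPM in Liancheng), miR-22-3p and miR-367-3p lay between the breeds. miR-146b-1,2-5p was 0.12 above both. let-7d-5p was 0.08 below both, at 86475 CPM in black F2, 91552 CPM in Kaiya and 92733 CPM in Liancheng. miR-26a-5p was 0.05 and miR-181b-1,2-5p 0.13 below both. Counting error is negligible for these, but the sides of miR-146b, let-7d, miR-26a, miR-181b, miR-10b-1-5p and miR-367-3p were not kept under all scalings. The names of these abundant miRNAs are the deposited ones and were not checked by sequence.

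Of the melanocyte and pigmentation list, 8 of 12 members with 50 reads were above both breeds, 2 below and 2 between, against 33, 31 and 44 of all 108. The 8 include both arms of mir-204, of mir-101 and of mir-148a, so they are not 8 separate cases. Among them miR-204-3p passed the minimum of 50 reads only through the black F2 library. Of the 14 families of this list 7 were found by name, and miR-211 was not analysed under that name. All lists were matched by deposited name and not by sequence, so members listed under another name are missed. Only the arms of mir-204 were 2-fold outside. miR-125b-3p (1882 CPM in black F2, 1706 CPM in Kaiya and 1404 CPM in Liancheng) was 0.14 above both, and miR-148a-3p (29664, 25567 and 29211 CPM) 0.02. With TMM over 5 libraries the distance of miR-125b-3p was 0.07, and under upper-quartile scaling it was smaller than its counting error. Others above both were within counting error of the nearer breed, such as miR-101-1,2-3p (0.007) and miR-148a-5p (0.001). miR-125b-5p (5871, 6481 and 5447 CPM) and miR-222a-3p (4291, 4387 and 3709 CPM) lay between the breeds. The 2 below were miR-196-1,2,3-5p (-0.41), which is also counted in the HOX-encoded list, and miR-218-5p (-0.07). The median log2 ratio of the list was 0.14 to Kaiya and 0.14 to Liancheng. Its count above both ranged from 6 to 9 over the scalings tried.

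Markers of the other cells of the bulb gave smaller values. Beside their counts, 30.6% of all 108 miRNAs were above both breeds and 28.7% below both. Of the 8 keratinocyte and epithelium members found by name 0 were above both breeds, 2 below and 6 between. They come from 4 of the 7 families of that list. Their levels summed to 116101 CPM in black F2, 129851 CPM in Kaiya and 106805 CPM in Liancheng. Epithelial miRNAs were thus abundant in all 3 libraries, and miR-203 was not analysed here. Of the 4 dermal mesenchyme members found by name (miR-22 and miR-214) 0 were above, 1 below and 3 between, with sums of 66527, 56853 and 76810 CPM. These are 2 of the 6 families of that list, so the sums may leave out members listed under another name. In black F2, miR-22-3p alone held 66170 CPM of this sum and miR-205b-5p 77301 CPM of the epithelial one. The sums thus weigh mainly the most abundant members. The vessel markers miR-126 and miR-130a had 1 of 3 above and 0 below, and the leukocyte-linked miR-146b arms 2 of 2 above, by at most 0.12. Each of these sums in black F2 lay within 1.5-fold of both breeds, beside the 73.1-fold step of miR-204-5p, and their part in that step was not tested.

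The neural list had 0 of 5 above and 2 below (miR-9-5p and miR-128-5p, by at most 0.06). Of the 8 miR-17-92 families listed 3 were found by name. Of their 8 members 1 was above and 4 below, against 30.6% and 28.7% of all 108. Over the scalings 0 to 1 were above and 1 to 4 below. In this list miR-106-2,3-3p and miR-106-3-3p, which carry the same 207 reads in black F2, count as separate members. The miR-30 family had 1 of 4 above and 2 below, the miR-34 and miR-449 family 1 of 3 on either side, and let-7d-5p, as given, was below both. Muscle is represented by miR-499-5p alone, and the liver miRNA miR-122 was not analysed here. No list other than the pigmentation one had a member 2-fold outside the breeds.

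**Figure D4:**
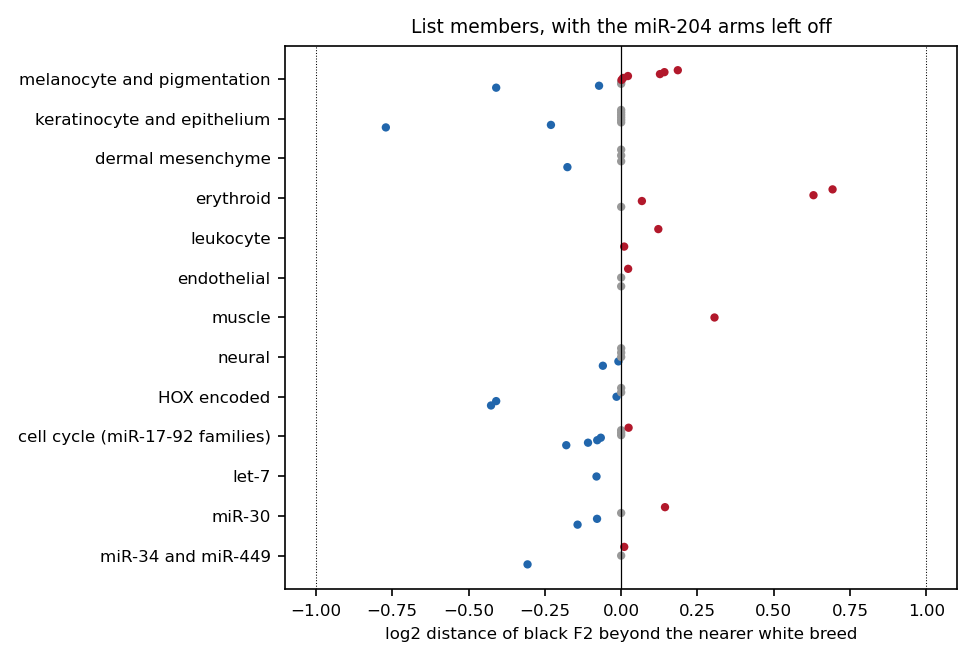
Log2 distance of black F2 beyond the nearer white breed for the members of each list, with members above both breeds in red, below both in blue, between them in grey at 0, and dotted lines at 2-fold. The arms of mir-204 (5.24 and 6.19) are left off. The highest points are the 3p arms of mir-2188 (0.69) and mir-144 (0.63), and the lowest is miR-429-5p at -0.77.

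The remaining libraries of the series give the miR-204 step a context. They are white bulbs of the same F2 cross and black bulbs of the pure black Cui Hei breed, also aged 12 months. All 3 were set against the same Kaiya and Liancheng libraries, which they therefore share as controls, with TMM factors computed over the 5 libraries. On this scale the level of miR-204-5p was 8720 CPM in black F2, 100 CPM in white F2 and 12095 CPM in Cui Hei, with 110 CPM in Kaiya and 118 CPM in Liancheng. The black libraries lay 6.21 and 6.69 above the nearer breed, and white F2 lay 0.13 below it. miR-204-3p had 58, 2 and 104 reads in black F2, white F2 and Cui Hei.

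In each of these comparisons few miRNAs lay 2-fold outside the breeds. They numbered 2 of 108 (1.85%) in black F2 and 2 (1.85%) in Cui Hei, the arms of mir-204 in both. In white F2 there was 1 (0.926%), miR-196-1,2,3-5p at -1.33 on the log2 scale. This miRNA lay 0.39 below the nearer breed in black F2 and between the breeds in Cui Hei. miR-144-3p was 0.56 above in black F2, between the breeds in white F2 and 0.84 above in Cui Hei, and miR-2188-3p 0.62, between and 0.70. miR-187-3p was 0.31 above in black F2 but 0.62 below in white F2. miR-10b-2-5p was 0.41 below in black F2 and between the breeds in the other two.

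The unnumbered 5p arm that was lowest in black F2 was low in all 3. Its distances were -0.76 in black F2, -0.69 in white F2 and -0.85 in Cui Hei, with 53, 74 and 86 reads. miR-99a-3p was also above the breeds in all 3, at 0.20 in black F2, 0.39 in white F2 and 0.20 in Cui Hei. So were, in the same order, miR-27b-3p (0.18, 0.36 and 0.08) and miR-1552-3p (0.27, 0.41 and 0.19). miR-499-5p was above in the F2 libraries (0.32 in black and 0.63 in white) and between the breeds in Cui Hei. The same held for miR-2131-3p (0.17 in black and 0.54 in white) and miR-30e-1-3p (0.16 and 0.31). miR-214-5p lay below by 0.25 in black F2, 0.86 in white F2 and 0.03 in Cui Hei. miR-30e-2-3p went opposite ways, at -0.12 in black F2 and 0.48 in white F2. Each is 1 library, and no difference between these libraries was tested.

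**Figure D5:**
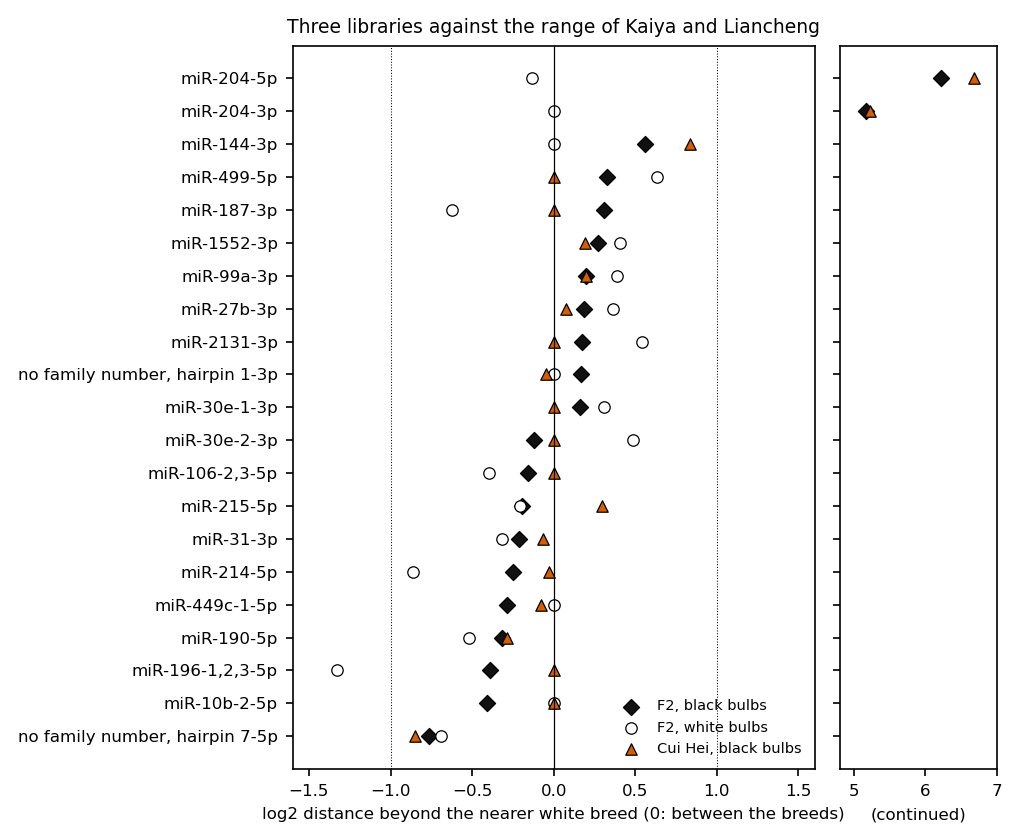
Log2 distance beyond the nearer white breed, on the scale of 5 libraries, for the same 21 miRNAs in black F2 (diamonds), white F2 (open circles) and Cui Hei (triangles), with 0 for a level between Kaiya and Liancheng and dotted lines at 2-fold. The x axis is broken to show the mir-204 arms, where the black libraries lie at 5.17 or more and white F2 at -0.13 and 0. The circle of miR-196-1,2,3-5p at -1.33 is the only other point past 2-fold.

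The balance of arms was also compared within hairpins, as the log2 ratio of 5p to 3p reads with a pseudocount of 0.5, which needs no scaling between libraries. Arms were taken from the 44 hairpins whose 5p and 3p reads each came to 50 or more. Among them black F2 was above both breeds in 9, below both in 16 and between in 19. Hairpins are counted separately even where they share reads. This holds for mir-455-1 and mir-455-2 among the 9, and for mir-106-2 and mir-106-3 among the 16. With the pseudocount of 0.5, black F2 was 2-fold outside in 2 (4.55%), mir-204 and the unnumbered hairpin with the low 5p arm. The 3p arm of mir-204 reached 50 reads only through black F2, so its entry here rests on that library. For mir-204 the ratio was 8.28 in black F2, 6.93 in Kaiya and 7.02 in Liancheng. The 3p share of its reads was 0.317% (exact binomial interval 0.241% to 0.410%) in black F2, 0.699% (0.144% to 2.03%) in Kaiya and 0.513% (0.0130% to 2.82%) in Liancheng. The intervals of the breeds, which rest on 3 and 1 reads of the 3p arm, include the share of black F2. The distance of mir-204 depended on the pseudocount, at 1.27 with 0.5 and 2.43 with 5. Without one, the 3p share of black F2 was less than 2-fold below that of Liancheng, so mir-204 passed 2-fold only through the pseudocount.

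In the unnumbered hairpin the 3p arm took 31.2% (21.1% to 42.7%) of the reads in black F2, 17.0% (12.6% to 22.2%) in Kaiya and 8.97% (3.68% to 17.6%) in Liancheng. Its 5p arm was low in black F2 while its 3p arm was not. The next hairpin was mir-10b-2, with a ratio of 9.31 in black F2, 10.73 in Kaiya and 10.12 in Liancheng. Its 3p share was 0.156% (0.115% to 0.206%) in black F2, 0.0588% (0.0515% to 0.0668%) in Kaiya and 0.0882% (0.0591% to 0.127%) in Liancheng. On the other side mir-31 leaned further to its 5p arm in black F2, with a 3p share of 0.537% (0.486% to 0.593%) against 0.751% (0.708% to 0.797%) in Kaiya and 0.754% (0.678% to 0.836%) in Liancheng. White F2 leaned the same way, with 108315 reads of miR-31-5p and 480 of miR-31-3p, so this is not particular to black bulbs. Cui Hei had 103672 and 739.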

How the data were processed

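Small RNA from feather bulbs was sequenced on an Illumina HiSeq instrument, and per the series' design text the authors used miRDeep2 2.1.2 for the clean reads. Bowtie 0.12.2 and FastQC are named in the submitters' processing notes. No genome build is given in the sources used here. The values used are raw read counts per mature miRNA, as deposited by the authors. They were checked to be whole numbers that sum, with the remaining reads, to the deposited hairpin totals. The authors' CPM served only as a check (largest deviation 0.005). Per the file headers, the Liancheng counts take in 2 bases upstream and 5 downstream of each mature sequence, and the headers of the black F2 and Kaiya tables do not state such a window. Whether this moved any ratio was not tested.

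The tables hold 134 mature names. Where a name stands under more than 1 hairpin, its line of most reads was used. The arms of 1 hairpin not listed in the Kaiya table (107 reads in black F2 and 147 in Liancheng for its 5p arm) were left out, and 24 names had fewer than 50 reads in the 3 libraries. Just inside that minimum were miR-449c-2-3p (50 reads) and miR-429-5p (51), just outside miR-130a-5p (49) and miR-193b-5p (48). The 108 kept hold 99.99% of the reads. TMM factors came from edgeR 4.0.16 in R 4.3.3, and intervals from SciPy 1.17.1 as Clopper-Pearson intervals of the reads in a pair of libraries. Reads carry no molecular identifiers, so intervals cover counting error only. A floor of 3 reads is 1.45 CPM in black F2, 0.740 in Kaiya and 1.86 in Liancheng. The calculation was tested on simulated data.

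Named are miRNAs 2-fold outside both breeds, the 10 highest and 10 lowest distances with at least 200 reads, the 10 most abundant, those 2-fold apart between the breeds, and 1.5-fold outliers among list members averaging 10 CPM or more. miR-429-5p, other list members and the arms outside mir-204 were named after their values were seen. The comparison and the lists were chosen with earlier results of these data known. Names are those of the files, and hairpins without a family number are given by sequence. The names were not checked by sequence against miRNAs of other species. Lists were matched by these names, so members that stand under another name are not counted. Alternatives were scaling by DESeq2 1.42.0 size factors, by upper quartiles or by library size alone, TMM over 5 libraries or without the most abundant miRNA, other read minimums, summed lines, unlisted names as 0, and each breed left out.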

Additional observations from a re-analysis of the deposited data

Results flagged for a closer look

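Reads that fell on a hairpin outside its listed mature sequences were not used in the comparison. In the black F2 library 57074 of 57497 such reads (99.3%) lay on mir-27b-1, which drew attention as a signal outside the main measurement. The breeds were alike in this, with 75354 such reads (99.2%) in Kaiya and 34893 (99.2%) in Liancheng. Set against miR-27b-3p reads, the ratio was 0.514 in black F2, 0.415 in Kaiya and 0.488 in Liancheng.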

How the results depend on the processing

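The arms of mir-204 were the miRNAs 2-fold above both breeds under each of the 5 other scalings, with 0 miRNAs 2-fold below. The log2 distance of miR-204-5p ranged from 6.19 to 6.25 over the scalings and that of miR-204-3p from 5.10 to 5.38. The 21 miRNAs plotted as farthest outside kept their side under all of them. Of 63 miRNAs outside the breeds and measured under each scaling, 33 kept their side (22 above, 11 below). With library size alone 17 miRNAs were below both breeds, since it raised the median ratio of black F2 to Kaiya from 0.05 to 0.18 (log2), and upper-quartile scaling lowered it to -0.09 and raised that to Liancheng from -0.06 to 0.09. Requiring 10 reads gave 3 miRNAs 2-fold above and 1 below, as rarer miRNAs enter (miR-460a-3p and a 3p arm without a family number), and requiring 200 left 1 above, as miR-204-3p has 62 reads. With 1 breed left out, 47 to 63 miRNAs were above the remaining breed and 45 to 61 below, 5 to 7 were 2-fold above and 1 to 3 2-fold below. With at least 200 reads per arm 0 hairpins were 2-fold outside in arm balance, since neither of the 2 is then compared. No paired analysis was possible because each group is 1 library. The single black F2 pool and the depth of the rarer miRNAs limit the smaller distances.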
